A study of Rattus norvegicus with 4 samples.

Results

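The genes described here encode the solute carriers that move sugars, amino acids and monocarboxylates such as lactate across cell membranes. They were chosen by name: every gene of the expression table whose symbol belongs to the carrier families SLC1, SLC2, SLC3, SLC5, SLC6, SLC7, SLC16, SLC36, SLC38 or SLC43, and which was not listed at 0 in all 4 libraries. 61 of 96 such genes met this rule, in a table of 31007 gene rows of which 10789 were not at 0 throughout. They were compared between the superficial zone of articular cartilage, the thin layer at the joint surface (SFZ), and the layers beneath it (deep AC). The tissue came from the proximal tibia of 2 Sprague-Dawley rats aged 10 weeks, untreated as far as the labels say, and each rat gave 1 library of each zone, cut out of frozen sections by laser microdissection. Polyadenylated RNA was amplified linearly before sequencing, so counting errors given here cover reads and not molecules. Each zone therefore has 2 libraries, and each gene has 2 within-rat differences.

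Articular cartilage has no blood vessels, and its cells, the chondrocytes, receive nutrients by diffusion. Chondrocytes live mainly on glycolysis, taking up glucose through carriers of the SLC2 (GLUT) family and releasing lactate with a proton through monocarboxylate carriers of the SLC16 (MCT) family. Amino acids for matrix protein synthesis enter through several systems: exchangers built of an SLC3 heavy chain and an SLC7 light chain, sodium-coupled carriers of SLC38, SLC1 and SLC6, cationic carriers of SLC7, and facilitators of SLC43. Some SLC5 and SLC6 carriers also bring in myo-inositol, betaine or taurine, the organic osmolytes by which cells adjust to a concentrated matrix.

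Values are log2 differences, SFZ minus deep AC, unless given as reads. Reads were recovered from the deposited values and are known for 55 of the 61 genes. Values under 1 scaled read had been set to 1, called the floor here. At the floor a gene had 0 reads in an SFZ library, and at most 1 in a deep AC library; fractions of a read are also possible there. Elsewhere the reads are the smallest whole numbers that match the deposited differences, so the true ones could be a common multiple of them. Reads are not divided by transcript length and are compared only within a gene. Genes averaging 10 scaled reads or more were tested with limma, with zone and rat as terms: 46 of the 61 carriers, among 8767 genes in all. An exact permutation test over 2 pairs cannot go below a p of 0.5 and was not used. The intervals are those of the limma fit. In bulk libraries such as these, fewer cells of a type and less RNA per cell cannot be told apart.

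The SFZ libraries carried the labelled tissue's markers. All 4 superficial zone markers (Prg4, Clu, Cilp and Thbs4) were at least 2-fold higher in SFZ in both rats, and all 8 chondrocyte markers were lower in SFZ in both rats, with medians of -2.03 and -2.56. Sox9, the defining transcription factor gene of chondrocytes, is listed at 0 in all 4 libraries. Markers of bone-forming cells differed by zone, in both directions. Of 6 detected (Sp7 was listed at 0), Alpl stood at -7.76 and -9.36, Ibsp at -8.75 and -10.27 and Dmp1 at -9.02 and -5.61, whereas Col1a1 stood at 7.16 and 2.27. Phex stood at 0.65 and -5.24 and Bglap at 0.00 and -1.02. Reads were not known for Alpl and Ibsp. The 4 with known reads summed to 1431 and 64.1 scaled reads in SFZ and to 723 and 108.9 in deep AC. Of these, Col1a1 alone had 1113 and 58 reads in SFZ and 8 and 13 in deep AC. Of 4 neuron and glia markers, Gfap was lower in SFZ in both rats, with no reads there and 670 and 141 reads in deep AC; the other three were at opposite signs in the rats or at 0 difference in rat 2. Macrophage, muscle and red cell markers varied by library, and some macrophage markers also differed by zone. Ptprc (-2.03 and -1.02) and Mrc1 (-1.63 and -0.15) were lower in SFZ in both rats. Lyz2 was higher in both (3.53 and 0.43), and Cd68 was opposed (-5.08 and 1.81). Macrophage markers with known reads summed to 3066 and 1732 scaled reads in SFZ and to 3808 and 1825 in deep AC, with C1qa and C1qb above the floor in SFZ of rat 1 alone. Muscle markers, with Acta1, Mb and Tnnt3 listed at 0, summed to 3.1 and 150.1 in SFZ and to 29.4 and 0.0 in deep AC. Red cell markers, with Hbb listed at 0, summed to 338 and 1588 in SFZ and to 350 and 234 in deep AC. Of the fibroblast markers, Col15a1 (1.74 and 2.25) and Pdgfra (0.53 and 1.53) were higher in SFZ in both rats. Scx was lower in both (-1.17 and -1.66), and Pi16 was opposed (-2.58 and 3.90). The osteoclast marker Ctsk was lower in both (-0.52 and -2.17). The part of any of these cell types in the results on carriers was not tested. Across all tested genes the SFZ libraries of the 2 rats lay further apart (median absolute log2 difference 0.90) than the deep AC libraries (0.52); over the 46 carriers these medians were 0.89 and 0.87.

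No carrier passed the limma threshold of an adjusted p of 0.05 (0 of 46); over all genes 1 of 8767 did, 0.0114%, the troponin gene Tnni2 at -9.66 and -10.47. At an unadjusted p under 0.05 there were 8 carriers, 17.4% of those tested against 9.86% of all genes; 4 were higher in SFZ (4.69% of all genes were) and 4 lower (5.17%). Fits with a library left out keep 1 library in that zone and no rat term. Their spread then comes from the 2 libraries of the other zone alone, which for some genes are both at the floor. Passing in such fits is therefore not counted here, and the sizes below stand without a passing test. Among the 46, 12 were at least 2-fold lower in SFZ in both rats (26.1%, against 11.9% of all tested genes) and 5 were at least 2-fold higher (10.9%, against 6.42%). A further 4, namely Slc7a11, Slc16a8, Slc38a1 and Slc6a15, differed by at least 2-fold in each rat but in opposite directions (11.1% of all). Simply by sign, 16 were lower in SFZ in both rats and 13 higher, against 28.9% and 25.2% of all tested genes. Both SFZ libraries lay below both deep AC libraries for 14 of the 46 (22.9% of all tested genes did so) and above them for 10 (19.6%). Over all 61 carriers, with the scarce ones included, 16 were at least 2-fold lower and 6 higher (12.3% and 5.36% of the 10789 genes), 4 opposed (9.94%), 18 lay below in both libraries (22.2%) and 11 above (16.2%). By sign alone 20 of the 61 were lower in both rats and 14 higher (27.3% and 20.8% of the 10789). Carriers at the floor in both SFZ libraries but above it in both deep AC libraries numbered 7 of 61 (5.71% of all genes), of which 3 were tested (3.32%). The reverse held for 1 of 61, Slc5a8 (0.389%), and for 0 of the 46 (0.308%). Median differences of the 46 were -0.46 in rat 1 and 0.16 in rat 2, and those of all tested genes were -0.13 and 0.00.

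**Figure D1:**
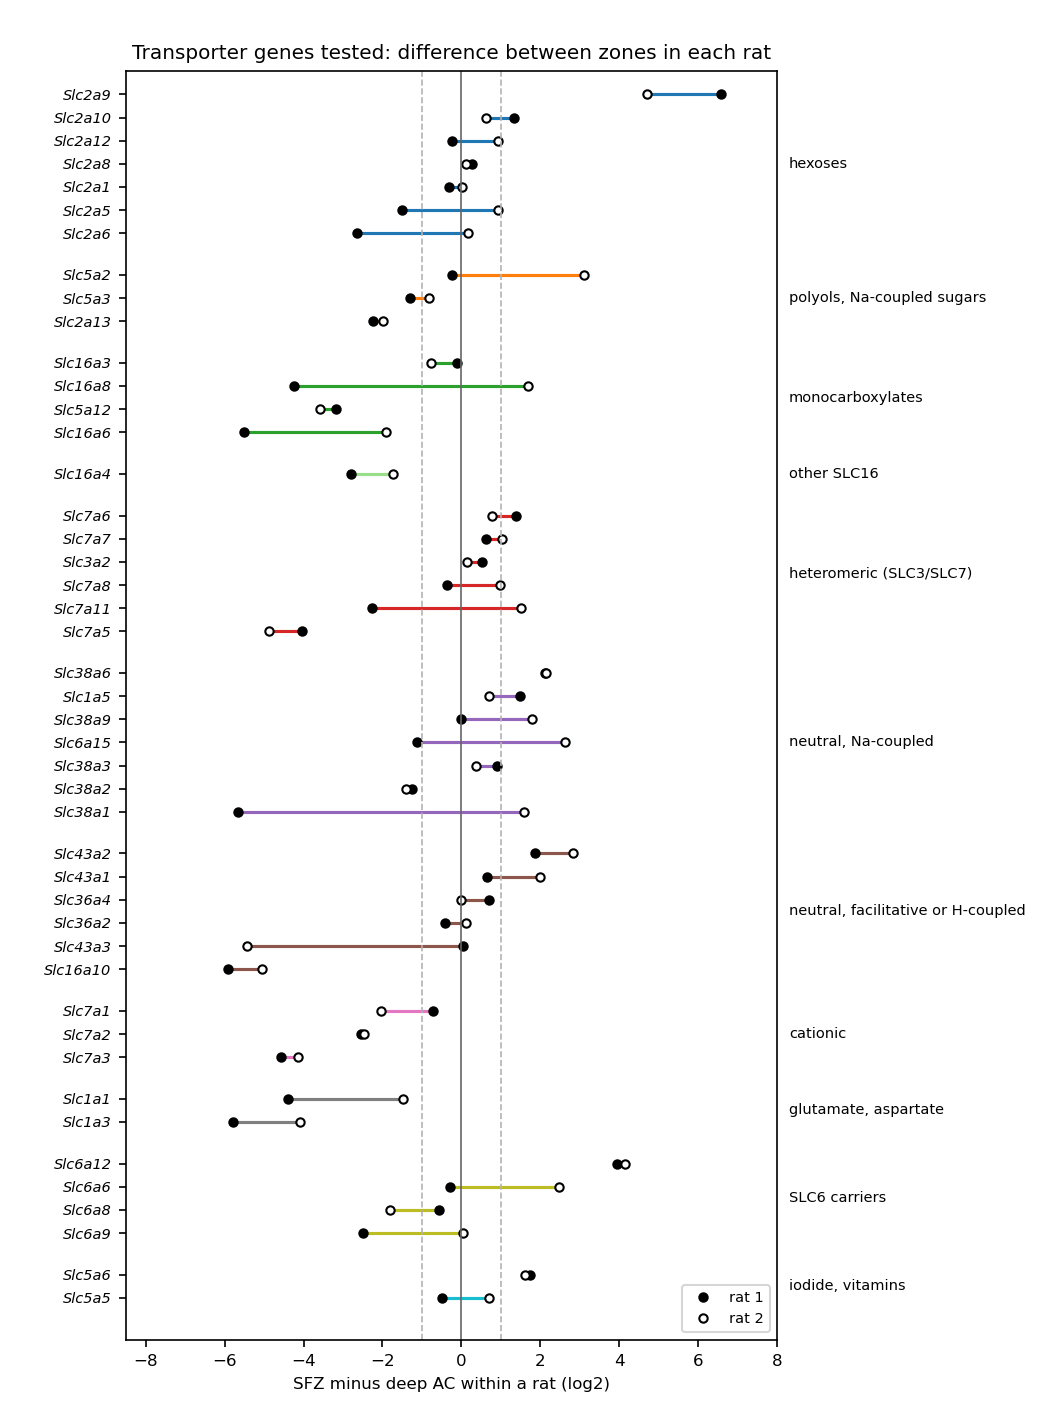
Log2 difference SFZ minus deep AC (x axis) of 45 of the 46 tested carrier genes, grouped by substrate; filled points are rat 1, open points rat 2, the line joins them, and dashed lines mark 2-fold. Slc2a9, Slc6a12, Slc43a2, Slc38a6 and Slc5a6 lie beyond 2-fold on the right in both rats, and 11 of the genes shown lie beyond 2-fold on the left in both.

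The counts in each direction differed with the number of reads. Of the 21 tested carriers with a mean of 10 to under 100 scaled reads, 10 were at least 2-fold lower in SFZ in both rats, where 29.9% of all genes in that range were, and 1 was higher (5.23% of all). Of the 25 with a mean of at least 100, 2 were lower (Slc2a13 and Slc38a2; 5.76% of all genes in that range) and 4 were higher (Slc6a12, Slc38a6, Slc5a6 and Slc43a2; 6.83% of all). Reads of Slc38a2 are not known, and its place at 100 or more scaled reads rests on the median level of other genes. The other carriers without known reads were placed there in the same way. The SFZ libraries were at the floor for 19 of the 61 carriers in each rat, against 7 in deep AC of rat 1 and 11 in deep AC of rat 2. Over all 10789 genes the floor held 23.7% and 22.6% in SFZ, against 7.11% and 14.5% in deep AC.

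**Figure D2:**
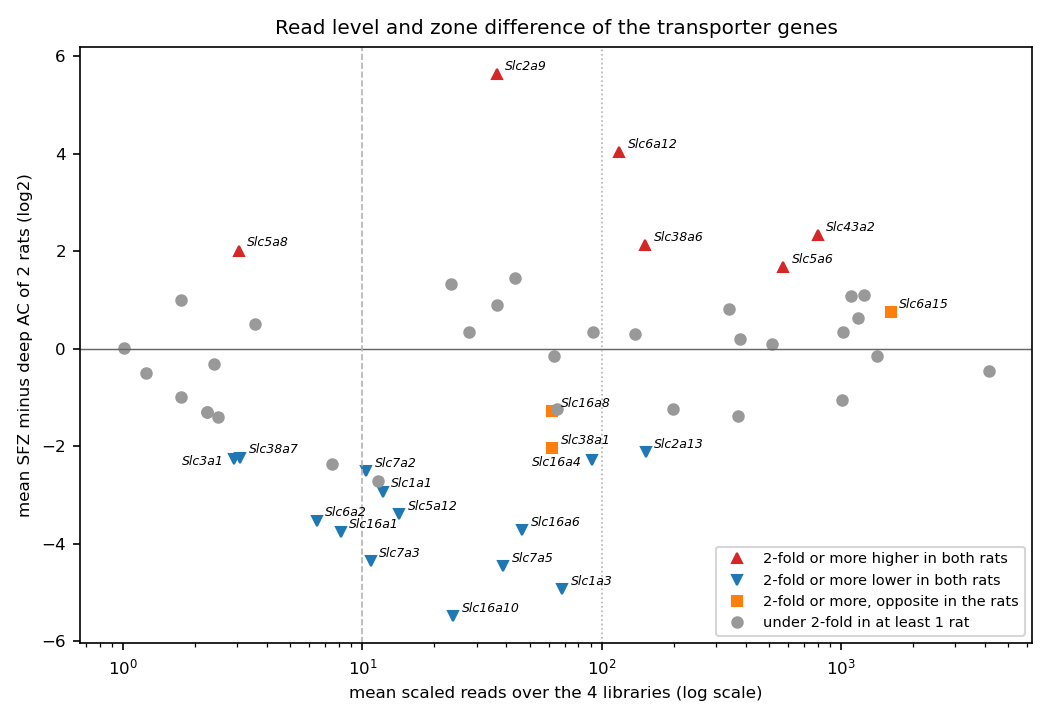
Mean log2 difference SFZ minus deep AC over the 2 rats (y axis) against mean scaled reads over the 4 libraries (x axis, log scale), with a point for each carrier shown that has known reads; vertical lines mark 10 and 100 scaled reads. Genes at least 2-fold lower in both rats (blue) sit mainly under 100 scaled reads, and 4 of the 6 higher ones (red) above it.

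The main glucose carrier differed little between the zones. Slc2a1, which encodes GLUT1, the basal glucose carrier of most cells (Entrez 24778), lies on chromosome 5 of rn4 at 139690804 to 139719021, plus strand. It had 1166 and 1510 reads in SFZ and 1477 and 1633 reads in deep AC. The zones overlap, since SFZ of rat 2 lies above deep AC of rat 1. Its difference was -0.30 in rat 1 and 0.00 in rat 2, a mean of -0.15 ± 0.22 (SD, n = 2 rats; limma adjusted p = 0.922), with a 95% interval of -1.06 to 0.76. Slc2a8, a carrier of intracellular membranes, had 456 and 343 reads in SFZ and 389 and 342 in deep AC, a mean of 0.19 ± 0.10 with an interval of -1.14 to 1.52. Slc2a3, which encodes the high-affinity carrier GLUT3, was near the floor, with 0 reads in both SFZ libraries, 2 reads in deep AC of rat 1 and the floor in deep AC of rat 2. Slc2a4, the insulin-responsive GLUT4 gene of muscle and fat, was listed at 0.

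Among the other members of the family Slc2a9, which encodes a carrier of urate, was much higher in SFZ in both rats. It had 93 and 48 reads in SFZ, against the floor in deep AC of rat 1 and 2 reads in deep AC of rat 2. The gene spans 77627658 to 77740695 of chromosome 14 in rn4. All SFZ values lie far above all deep AC values, with differences of 6.57 and 4.70 (limma adjusted p = 0.503). Counting the floor library as 0, the ratio of SFZ to deep AC was 74.3, with an exact counting interval of 20.2 to 620. That interval covers the counting of reads only, not differences between rats. The limma 95% interval of the log2 difference was 0.26 to 11.02. The reads of Slc2a10, whose human counterpart is mutated in arterial tortuosity syndrome, are not known. Its deposited log2 values, which are relative to the gene's own median, were 1.10 and 0.22 in SFZ and -0.22 and -0.40 in deep AC. Both SFZ libraries are the higher ones, with differences of 1.32 and 0.62 that averaged 0.97 ± 0.50 (limma adjusted p = 0.534). The fructose carrier gene Slc2a5 stood at -1.496 and 0.92, Slc2a6 at -2.64 and 0.16, and Slc2a12 at -0.23 and 0.93. These last 3 were therefore on opposite sides in the rats.

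Both detected carriers of myo-inositol were lower in SFZ in both rats, as were 28.9% of all tested genes. Slc2a13, the proton-coupled inositol carrier gene, had 62 and 50 reads in SFZ and 300 and 215 in deep AC, with differences of -2.24 and -1.99 and a mean of -2.11 ± 0.18 (limma adjusted p = 0.571). Its limma 95% interval of -4.95 to 0.73 includes 0. Slc5a3, which encodes the sodium-coupled inositol carrier SMIT1, had 456 and 880 reads in SFZ and 1150 and 1675 in deep AC. Its zones do not overlap either, and its differences of -1.30 and -0.81 averaged -1.05 ± 0.34 (limma adjusted p = 0.493). Slc5a2, the kidney glucose carrier SGLT2, had 10 and 136 reads in SFZ and 12 and 17 in deep AC, so that SFZ of rat 2 alone stood out. It overlaps another gene, RGD1310127, on the opposite strand, which stood at 0.57 and -0.60.

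**Figure D3:**
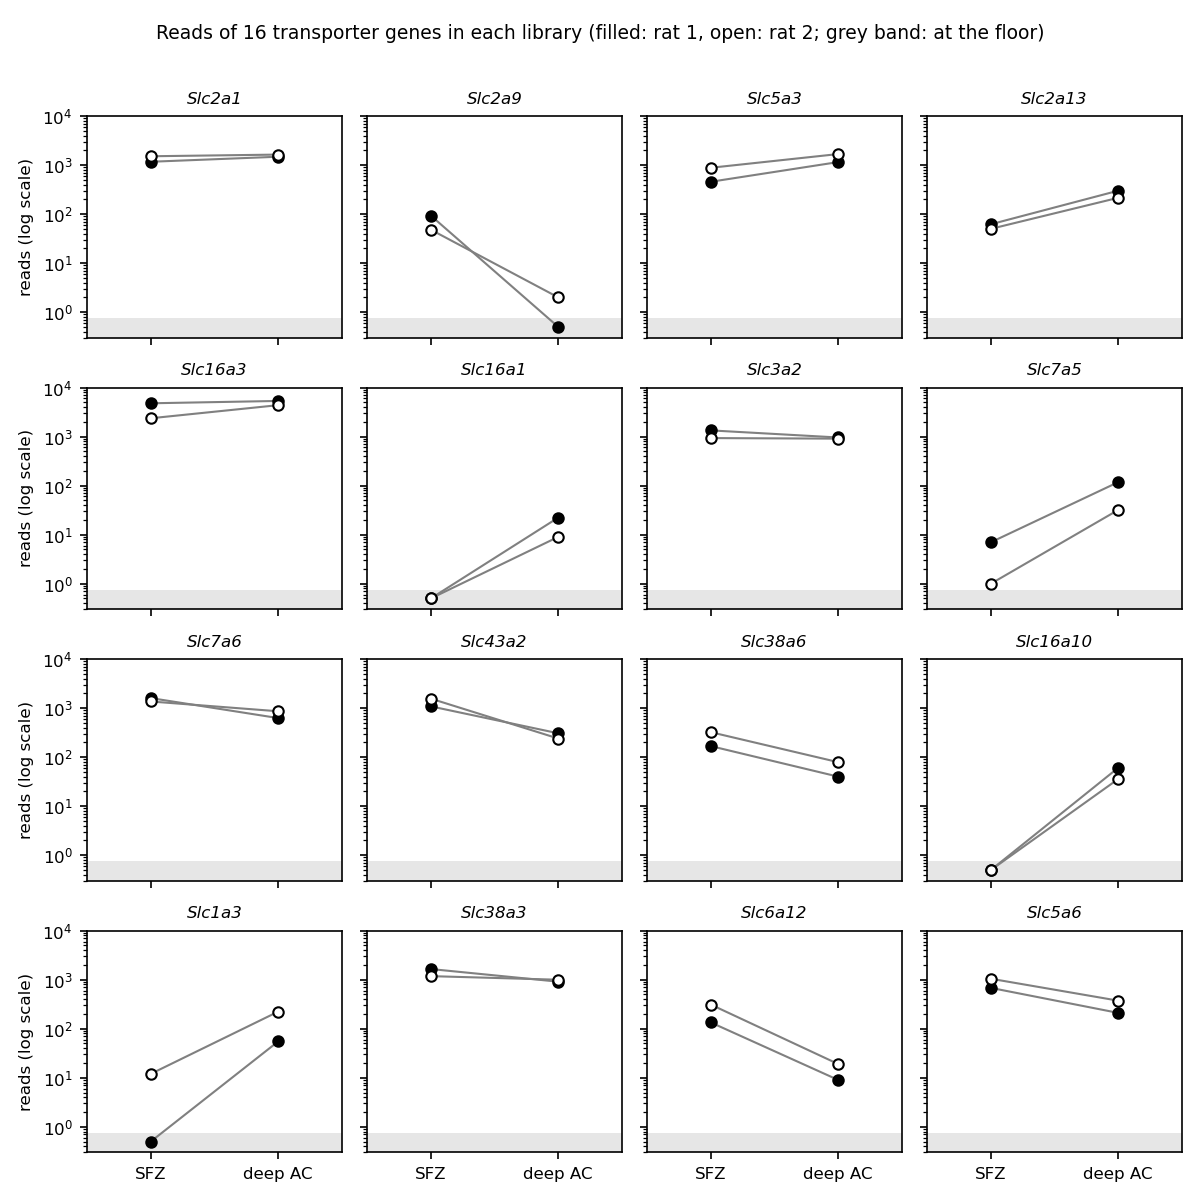
Reads (y axis, log scale) of 16 carrier genes in each library; filled points are rat 1, open points rat 2, lines join the zones of a rat, and points in the grey band were at the floor. Slc2a1 and Slc3a2 are nearly level between the zones, while Slc7a5, Slc16a10 and Slc1a3 are low in both SFZ libraries and Slc43a2, Slc38a6, Slc6a12 and Slc5a6 are high in both.

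The main lactate carrier was lower in SFZ by less than 2-fold in both rats. Slc16a3, which encodes MCT4, the lactate exporter of glycolytic cells (chromosome 10 of rn4, 110159679 to 110163182, plus strand), was read 4775 and 2364 times in SFZ and 5334 and 4374 times in deep AC. SFZ of rat 1 lies within the deep AC range, and SFZ of rat 2 lies under it. The mean difference was -0.45 ± 0.46 (SD, n = 2 rats; limma adjusted p = 0.730), with an interval of -1.45 to 0.56. Slc16a1, which encodes MCT1, had no reads in SFZ of either rat, against 22.25 and 9 reads in deep AC. By a counting bound, it was at least 10.0-fold lower in SFZ. The bound takes 3 reads over both SFZ libraries as the limit that a count of 0 allows, as for all such bounds here. It takes the deep AC reads as exact and so covers the counting of SFZ reads only. Counting error in deep AC and differences between rats are left out, so it is not a strict limit. Slc16a1 was under the minimum level and was not tested, and its count holds a fraction of a read. MCT2, from Slc16a7, had 0 and 3 reads in SFZ, with the floor and 5 reads in deep AC.

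Of the remaining monocarboxylate carriers, Slc16a6 and Slc5a12 were lower in SFZ in both rats, as were 28.9% of all tested genes. Slc5a8 was higher and Slc16a8 was opposed. Slc16a6, a ketone body carrier, had 2 and 19 reads in SFZ and 94 and 78 in deep AC (-5.52 and -1.92; limma adjusted p = 0.604). Slc5a12, a sodium-coupled lactate carrier of the kidney, had 3 and 2 reads in SFZ and 28 and 26 in deep AC (-3.19 and -3.58; 0.635). In both genes the zones are apart. Slc5a8, its high-affinity relative, went the other way with 8 and 2 reads in SFZ and the floor in both deep AC libraries, too few to test. Slc16a8, the MCT3 gene known from the retinal pigment epithelium, had 0 and 174 reads in SFZ and 19 and 59 in deep AC, which puts the rats on opposite sides. Slc16a4, a relative with no settled substrate, had 27 and 33 reads in SFZ and 194 and 120 in deep AC (-2.81 and -1.75; 0.654).

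Carriers of leucine and the other large neutral amino acids lay in both directions. Slc43a2, which encodes the facilitator LAT4 (Entrez 287532), spans 62853094 to 62894776 of rn4 chromosome 10, plus strand. It had 1087 and 1562 reads in SFZ and 307 and 240 in deep AC. The lowest SFZ library lies more than 3 times above the highest deep AC library. Its differences of 1.86 and 2.82 averaged 2.34 ± 0.68 (SD, n = 2 rats; SE 0.47; 95% interval 1.15 to 3.53), and its limma adjusted p of 0.276 was the smallest of the 46. Slc7a5, which encodes LAT1, the light chain that exchanges leucine for glutamine (Entrez 50719), spans 52120728 to 52149332 of rn4 chromosome 19, minus strand. It had 7 and 1 reads in SFZ and 118 and 32 in deep AC. Here both SFZ libraries lie far below both deep AC libraries, and the differences of -4.04 and -4.88 averaged -4.46 ± 0.60 (limma adjusted p = 0.533). The limma 95% interval of Slc7a5, -9.75 to 0.83, includes 0. The bases before the transcription start of these 2 genes are printed because these carriers of the same substrate stood on opposite sides. They are RefSeq sequences of the build GRCr8, 250 bases each, 5′ to 3′ on the gene's strand, and capitals mark matches of 2 short motifs on either strand.
Slc43a2, chr10:60874588-60874837, plus strand: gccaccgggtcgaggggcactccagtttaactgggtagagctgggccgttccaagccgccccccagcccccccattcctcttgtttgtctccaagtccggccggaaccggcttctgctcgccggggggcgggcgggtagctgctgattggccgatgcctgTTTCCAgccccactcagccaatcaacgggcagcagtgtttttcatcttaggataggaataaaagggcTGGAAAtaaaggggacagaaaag
Slc7a5, chr19:66872413-66872662, minus strand: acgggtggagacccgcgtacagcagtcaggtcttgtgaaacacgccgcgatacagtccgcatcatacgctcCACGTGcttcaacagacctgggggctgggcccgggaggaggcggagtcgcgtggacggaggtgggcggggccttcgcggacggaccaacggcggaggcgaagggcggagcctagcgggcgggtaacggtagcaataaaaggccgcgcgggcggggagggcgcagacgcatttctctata
In Slc43a2 the capitals are the letters TGGAAA or their reverse complement, the core of the tonicity response element, found in 19.7% of 33469 promoters of that length. In Slc7a5 they are overlapping matches of ACGTG on both strands, the core of the hypoxia response element, found in 16.6%. Promoters of 46 of the 61 carriers were in the RefSeq table. A match is a description of letters and not a site.

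The heavy chain that Slc7a5 pairs with did not share its pattern. Slc3a2, which encodes the common heavy chain 4F2hc, had 1337 and 932 reads in SFZ and 958 and 908 in deep AC, an overlap, with a mean difference of 0.34 ± 0.26 (limma adjusted p = 0.794; interval -0.61 to 1.29). The light chain genes Slc7a6 and Slc7a7 were higher in SFZ in both rats. Slc7a6, which encodes y+LAT2, an exchanger of cationic for neutral amino acids, had 1603 and 1367 reads in SFZ and 627 and 863 in deep AC (1.39 and 0.78; limma adjusted p = 0.493), and Slc7a7, its close relative, had 319 and 553 against 214 and 293 (0.61 and 1.03; 0.673). In neither gene do the zones overlap. Slc7a8, the LAT2 gene, had 144 and 141 reads in SFZ and 190 and 78 in deep AC. Slc7a11, the cystine and glutamate exchanger xCT that feeds glutathione synthesis, had deposited log2 values of -0.05 and 0.05 in SFZ and 2.20 and -1.46 in deep AC. The SFZ libraries were thus nearly level and the deep AC libraries lay on either side of them. Slc3a1, the other heavy chain, had 0 reads in SFZ and 5 in each deep AC library. Its main partner Slc7a9 was listed at 0, and Slc7a13 had 4 reads in a single library, SFZ of rat 2. Slc7a10 and Slc7a12 had at most 8 reads in any library, and the rodent gene Slc7a15, outside the substrate lists, had 1 read in SFZ of rat 1.

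The other facilitators and proton-coupled carriers went several ways. Slc43a1, the LAT3 gene, had 23 and 44 reads in SFZ and 15 and 12 in deep AC (0.65 and 1.99). Slc43a3, which encodes a purine nucleobase carrier, had 1 and 0 reads in SFZ, the floor in deep AC of rat 1 and 47 reads in deep AC of rat 2, so its difference rests on that library. It lies 62715 bases from Slc43a1 on the same strand. Slc16a10, which encodes TAT1, a carrier of aromatic amino acids, had no reads in SFZ and 61 and 36 reads in deep AC. Its differences were -5.93 and -5.05 (limma adjusted p = 0.503), with a limma 95% interval of -10.75 to -0.23. By the counting bound it was at least 31.0-fold lower in SFZ. Slc36a2, a proton-coupled carrier of glycine and proline, had 70 and 45 reads in SFZ and 96 and 45 in deep AC. Its neighbour Slc36a1, the lysosomal relative, had 4 reads in deep AC of rat 1 and none above the floor elsewhere. In Slc36a4 both libraries of rat 1 had reads, 66 in SFZ and 42 in deep AC, while both of rat 2 were at the floor, so that the libraries divide by animal.

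Sodium-coupled carriers of small neutral amino acids also split. Slc38a2, which encodes SNAT2, the carrier induced by amino acid shortage and by hypertonic medium, had deposited log2 values of -0.79 and -0.46 in SFZ and 0.46 and 0.96 in deep AC. Both SFZ libraries are the lower ones, with differences of -1.25 and -1.41 and a mean of -1.33 ± 0.12 (SD, n = 2 rats; SE 0.46; limma adjusted p = 0.483). Slc38a6, a less studied relative, had 168 and 323 reads in SFZ and 40 and 79 in deep AC. The rats gave nearly the same difference, 2.11 and 2.15 (limma adjusted p = 0.579). The limma 95% interval of Slc38a6, -0.77 to 5.03, includes 0. Slc38a3, which encodes the glutamine carrier SNAT3, had 1648 and 1181 reads in SFZ and 911 and 998 in deep AC, apart but under 2-fold (0.89 and 0.36; 0.629). Slc1a5, the glutamine carrier ASCT2, had deposited log2 values of 1.91 and -0.41 in SFZ and 0.41 and -1.12 in deep AC. It was higher in SFZ within each rat, but the zones overlap, since SFZ of rat 2 lies below deep AC of rat 1. Slc38a1, which encodes SNAT1 and lies 48915 bases from Slc38a2, had 0 and 148 reads in SFZ and 51 and 53 in deep AC, with the deep AC libraries close together and the SFZ libraries on either side of them. Slc6a15, a carrier of branched-chain amino acids, had 636 and 3794 reads in SFZ and 1416 and 669 in deep AC, again with the rats opposed. The lysosomal amino acid sensor Slc38a9 was at the floor in both libraries of rat 1 and had 112 reads in SFZ and 35 in deep AC of rat 2. Slc38a4 had 27 reads in deep AC of rat 1 alone, and Slc38a7 had none in SFZ and 3 and 8 reads in deep AC.

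**Figure D4:**
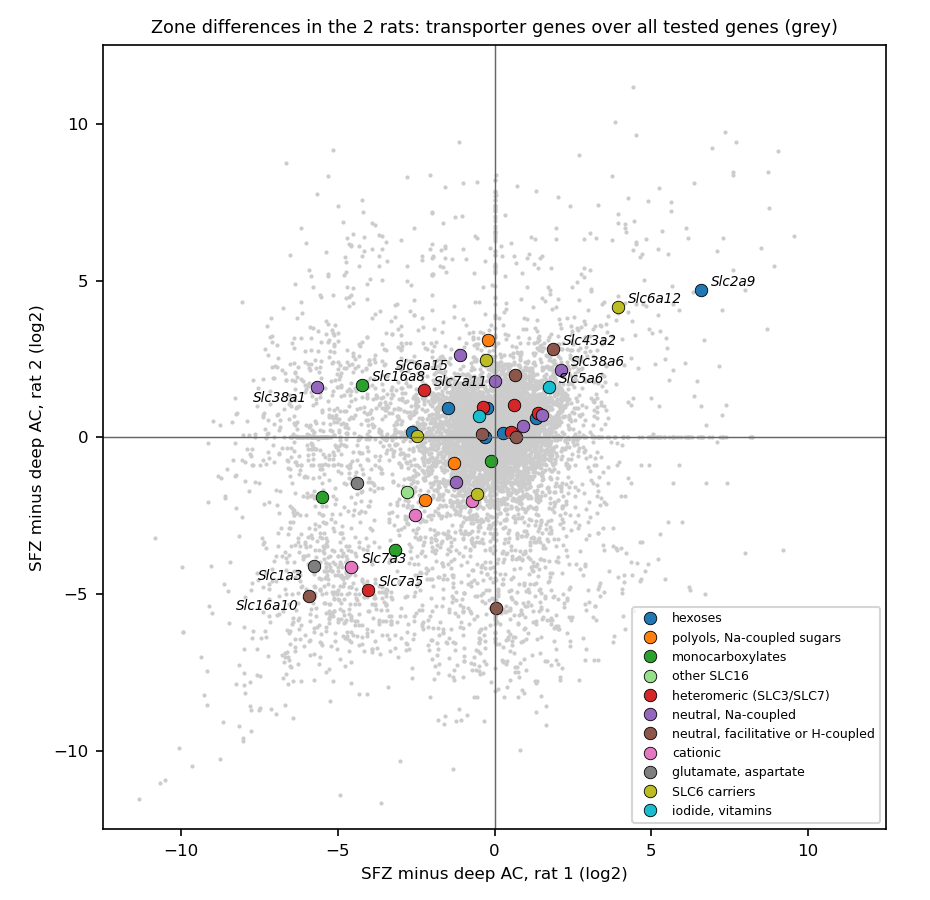
Log2 difference SFZ minus deep AC in rat 1 (x axis) against rat 2 (y axis); grey points are the 8767 tested genes and coloured points 45 tested carriers by substrate class. Slc2a9 and Slc6a12 are far out at the upper right and Slc16a10, Slc7a5, Slc1a3 and Slc7a3 at the lower left, while Slc38a1, Slc16a8, Slc7a11 and Slc6a15 are at the upper left.

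All 3 detected carriers of the cationic (CAT) branch of SLC7 and both detected SLC1 glutamate carriers were lower in SFZ in both rats. Of all tested genes, 28.9% were. Apart from Slc7a1 these carriers averaged 10 to under 100 scaled reads, where 29.9% of all genes were at least 2-fold lower in both rats. Slc7a1, which encodes the arginine and lysine carrier CAT1, had 418 and 67 reads in SFZ and 711 and 300 in deep AC (-0.73 and -2.05; limma adjusted p = 0.554), and the zones overlap because rat 1 had more reads than rat 2 in both. Its relatives were scarcer. Slc7a3 had no reads in SFZ and 24 and 19 reads in deep AC, at least 13.7-fold lower by the counting bound. Its limma 95% interval of -9.48 to 0.77 includes 0 (limma adjusted p = 0.533). Slc7a2 had 5 and 0 reads against 30 and 6. Slc1a3, which encodes the glutamate and aspartate carrier GLAST, had 0 and 12 reads in SFZ and 55 and 223 in deep AC, at -5.78 and -4.10 (limma adjusted p = 0.515). Its limma 95% interval of -10.13 to 0.26 includes 0. Slc1a1, the other glutamate carrier detected, had 2 and 0 reads in SFZ and 43 and 3 in deep AC, a deep AC to SFZ ratio of 21.8 with an exact counting interval of 5.71 to 186. That ratio rests on deep AC of rat 1. The mean difference was -2.93 with all libraries (limma 95% interval -8.23 to 2.38). It was -0.95 without that library and -4.91 without deep AC of rat 2, in fits with no rat term.

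In the SLC6 family an osmolyte carrier was much higher in SFZ. Slc6a12, which encodes BGT1, a carrier of the osmolyte betaine, had 134 and 310 reads in SFZ and 9 and 19 in deep AC, and spans 157781178 to 157800038 of rn4 chromosome 4. Both SFZ values exceed both deep AC values, and the differences of 3.93 and 4.15 averaged 4.04 ± 0.15 (SD, n = 2 rats; SE 1.66; limma adjusted p = 0.508). The limma 95% interval of Slc6a12, -0.13 to 8.20, includes 0. Its neighbour Slc6a13, 9232 bases away on the same strand, had 6 reads in deep AC of rat 1 and was at the floor elsewhere.

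The taurine carrier gene Slc6a6, a further osmolyte carrier, had 849 and 2622 reads in SFZ and 1055 and 514 in deep AC, at -0.28 and 2.47, so that only rat 2 was apart. Slc6a8, the creatine carrier gene, had deposited log2 values of -0.22 and -1.60 in SFZ and 0.36 and 0.22 in deep AC, so that both SFZ libraries were the lower ones (differences -0.58 and -1.82; mean -1.20 ± 0.88; limma adjusted p = 0.538). Slc6a9, which encodes the glycine carrier GLYT1, had 46 and 245 reads in SFZ and 264 and 260 in deep AC, and SFZ of rat 1 alone was low. Slc6a2, the noradrenaline carrier gene, had no reads in SFZ and 9 and 16 reads in deep AC, at least 7.82-fold lower by the counting bound. Slc6a4, the serotonin carrier gene, had 7 reads in deep AC of rat 1 alone.

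Among the SLC5 carriers of other solutes, Slc5a6, which encodes the multivitamin carrier of biotin and pantothenate, was higher in SFZ. It had 680 and 1045 reads in SFZ and 210 and 373 in deep AC, with no overlap, and lies at 25301630 to 25312901 on rn4 chromosome 6. The differences were 1.73 and 1.60, a mean of 1.67 ± 0.09 (SD, n = 2 rats; SE 0.47; limma adjusted p = 0.404). Slc5a5, the iodide carrier gene of the thyroid, had 487 and 531 reads in SFZ and 707 and 356 in deep AC, on opposite sides in the rats.

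35 carriers were listed at 0 in every library and have no value here. They include Slc1a4, Slc38a10 and most of the neuronal, kidney and gut members, such as Slc1a2, Slc6a3, Slc5a1 and Slc6a19. B2m, a gene of nearly all cells, is listed at 0 too, so a 0 in this table does not show that a gene was silent. Over the 10 lists with more than 1 detected gene, counts at least 2-fold apart in both rats were lower for 2 of 3 cationic, 2 of 2 acidic, 3 of 7 monocarboxylate, 1 of 3 polyol and sugar, 2 of 8 SLC6, 2 of 10 heteromeric, 2 of 9 sodium-coupled neutral and 1 of 7 other neutral carriers. They were higher for 1 of 8 hexose, 1 of 2 vitamin and iodide, 1 of 7 monocarboxylate, 1 of 8 SLC6, 1 of 9 sodium-coupled neutral and 1 of 7 other neutral carriers. The shares over all genes are those given above.

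Genes that work with these carriers were read from 5 further lists, and none passed the limma threshold. Of the partners and trafficking factors, Bsg, which encodes basigin, the chaperone of MCT1 and MCT4, stood at -0.16 and 0.14, while Txnip, which promotes GLUT1 removal from the surface, had 5208 and 7746 reads in SFZ and 3029 and 1487 in deep AC (0.82 and 2.50; limma adjusted p = 0.440). In Nedd4l, a ubiquitin ligase gene acting on membrane carriers, SFZ held 0 and 2 reads and deep AC 67 and 23. Of 5 detected genes at the ends of glycolysis Ldha stood at -0.17 and -0.81, and Hk2, too scarce to test, had 0 and 1 reads in SFZ and 3 and 15.33 in deep AC. Of 5 hypoxia regulators, Egln3, a hypoxia-induced prolyl hydroxylase gene, had 982 and 1533 reads in SFZ and 160 and 155 in deep AC (2.65 and 3.42; limma adjusted p = 0.200), whereas Arnt, which encodes the partner of the hypoxia-inducible factors, had no reads in SFZ of either rat and 21.50 and 9 in deep AC.

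In the list of amino acid sensing and response, 3 of 16 detected genes were at least 2-fold lower in SFZ in both rats and 1 was higher, where 12.3% and 5.36% of the 10789 genes were. The lower ones were Atf4, the transcription factor of the amino acid response, at -1.08 and -1.25, and the serine synthesis genes Psat1 and Phgdh. Psat1 had 25 and 8 reads in SFZ and 163 and 98 in deep AC, and Phgdh had 0 and 9 against 54 and 32. The higher one was Sesn3, a sestrin gene of the nutrient-sensing pathway, at 1.04 and 1.40. Asns, another target of Atf4, stood at 2.87 and 0.54, in the other direction from it. Of 10 genes of glutamine, glutamate, proline and cystine use, none was 2-fold lower or higher in both rats. Gclc, of glutathione synthesis, was opposed at 2.83 and -6.39.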

How the data were processed

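The deposited table holds 1 log2 value per gene and library, and the authors scaled it by TMM (trimmed mean of M values), per the title of the file. Per the submitters' processing notes, positions refer to rn4. Which aligner, counting program and strand setting were used is not stated there or in the labels, so overlapping or near-identical genes could share reads. Medians of the 4 values were 0 in every row (within 1e-06), so levels had been removed. In rows above 0 in a single library the values were whole multiples of the value of 1 read (1.02 and 1.00 in SFZ, 0.996 and 0.923 in deep AC, rats 1 and 2) in 94.0% to 96.7% of cases (relative tolerance 1e-05), with values under 1 set to 1. From this, levels were computed for 3467 rows with a library at the floor and 5356 rows with matching whole reads (relative tolerance 1e-06, sum of at most 20000). Another 1966 rows took the median level of matched rows with the same binary step in their values. Reads in rows with known reads summed to 3735860 and 3918407 in SFZ and 3698086 and 3839898 in deep AC; the total depth is unknown.

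Differences were tested with limma 3.58.1 (R 4.3.3; lmFit, then eBayes with trend=TRUE) in rows averaging 10 scaled reads or more, with zone and rat as terms, 1 residual degree of freedom, two-sided p-values and Benjamini-Hochberg adjustment over 8767 genes. Rat is a block because the titles tie both zones to an animal. The log2 differences are those deposited. The steps were also run on simulated data with independent noise in each library and no difference between rats. That run therefore does not cover variation between animals. Members, lists and motifs were chosen with earlier results of these data known. Values in every library are given for carriers past the threshold, 2-fold higher or lower in both rats, at the floor in both libraries of 1 zone only, or named as the main carriers of a class; Slc7a6, Slc7a7, Slc38a3, the remaining carriers and some of the pathway genes (Bsg, Txnip, Ldha, Asns, Gclc) were singled out after their values were seen. Some genes counted among the members and lists are not reported by name here. Alternatives were no rat term, quantile normalization, no minimum level or one of 100 scaled reads, a pseudocount of 1 and an untrended prior. Each library was also left out in turn, in fits with no rat term. Ratios with few reads have exact (Clopper-Pearson) 95% intervals, which cover counting error only. The fold bounds of genes at the floor in SFZ cover the counting error of the SFZ reads only.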

Additional observations from a re-analysis of the deposited data

How the results depend on the processing

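Of the 61 carriers, 15 were under the minimum level and not tested, and 25 averaged at least 100 scaled reads. Without the replicate block of rat, 0 carriers and 1 gene in all passed; pairing changed no call. The count over all genes was 0 with an untrended prior or with no minimum level, 3 with a pseudocount of 1, 82 with quantile normalization, and from 0 to 404 with a library left out. Without deep AC rat 1 or rat 2, 364 and 404 genes passed, 306 and 342 of them with both SFZ libraries at the floor and so with no spread. Among carriers, 4 passed without deep AC rat 1 (Slc7a3, Slc16a10 and Slc43a3 among them) and 3 without deep AC rat 2, and 0 without either SFZ library. With a library left out only 1 rat has both zones, so the rule of 2-fold in both rats cannot be applied. By the unpaired difference of those fits, 6 to 13 carriers were at least 2-fold higher and 11 to 15 lower. These counts follow another rule than the main ones and are not comparable with them. With a minimum of 100 scaled reads 2 were lower in both rats. Class medians were less stable. With a minimum of 100 scaled reads the median of all carriers was 0.30, and that of cationic carriers -1.39, monocarboxylate carriers -0.45, SLC6 carriers -0.0504, facilitative and proton-coupled neutral carriers 2.34 and polyol carriers -1.58. With quantile normalization, which left the median of all genes at -0.05 against -0.11, cationic, monocarboxylate and facilitative neutral medians were -1.36, -0.51 and 0.80. A pseudocount of 1 gave -2.02 for cationic carriers, and no minimum level gave -0.15 for facilitative neutral ones. With a library left out, medians ran from -3.72 to -1.29 (cationic), -4.04 to -1.54 (monocarboxylate), -1.27 to -0.0348 (SLC6), -0.52 to 1.57 (sodium-coupled neutral), -1.59 to 0.995 (facilitative neutral) and -1.51 to -0.60 (polyol). Of 439 values of the 46 carriers under the alternatives, 408 kept their direction and their side of the threshold and 24 turned round. The others came from fits that left 1 library in a zone. Dropping the rat term, an untrended prior or another minimum level cannot change a gene's difference. In those settings the direction was fixed in advance, so the count of 408 does not measure how stable the directions are. With quantile normalization Slc16a8 turned to 0.27, Slc36a2 to 0.52 and Slc5a5 to -0.0177. Fits with a library left out had no rat term, so differences between the rats enter their values. Slc2a8 and Slc1a5 were higher in SFZ within each rat, yet turned in such a fit. With a library left out the direction turned in at least 1 case, with these ranges, for Slc16a3 (-0.97 to 0.0759), Slc16a8 (-5.005 to 2.44), Slc1a5 (-0.0567 to 2.26), Slc2a1 (-0.32 to 0.0214), Slc2a12 (-0.23 to 0.92), Slc2a5 (-1.31 to 0.74), Slc2a6 (-3.09 to 0.61), Slc2a8 (-0.0267 to 0.41), Slc36a2 (-0.75 to 0.45), Slc36a4 (-2.69 to 3.38), Slc38a1 (-5.64 to 1.57), Slc38a9 (-2.51 to 4.30), Slc43a3 (-5.42 to 0.0159), Slc5a2 (-0.42 to 3.31), Slc5a5 (-0.45 to 0.65), Slc6a15 (-0.52 to 2.02), Slc7a11 (-2.20 to 1.46) and Slc7a8 (-0.39 to 1.002). The cause was not tested.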
